A study of Mus musculus with 7 samples.

Results

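Cxcl13 and Cxcr5, a chemokine and its receptor, were followed through the immune cells of mouse gliomas. They are 2 of the 55491 gene rows of the deposited matrix, which holds 28644 cells and 207882564 unique molecular identifiers (UMIs, each standing for 1 captured transcript). Cxcl13 was selected on its summed UMIs in microglia, which were lower in the knockout mice, and Cxcr5 was added as its receptor. The levels of Cxcl13 in microglia by genotype are therefore given as a description, without a test.

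CT-2A cells, a line of mouse glioma, were injected into the brain of mice aged 8 to 12 weeks (50000 cells per mouse). The KO group held 4 mice with the tamoxifen-inducible Cre driver Sall1-CreERT2 and Siglece fl/fl alleles; Sall1 is a transcription factor used to mark microglia, and Siglece encodes an inhibitory receptor for sialic acids. The WT group held 3 Siglece fl/fl mice without the driver, so both groups carried the floxed alleles. Both groups received tamoxifen, 2.5 mg per injection, daily from day 7 after tumour injection and every other day from day 21. The driver allele came from a B6;129 background and the floxed allele from B6.129P2. Live CD45+ and/or CD11b+ cells of the tumour-bearing hemisphere were frozen, thawed, sorted and run as 1 droplet library per mouse. The mice are named KO 1 to KO 4 and WT 1 to WT 3.

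CXCL13 draws cells that carry CXCR5, a G protein-coupled receptor. In lymph nodes and spleen it is made by follicular dendritic and other stromal cells, and it guides B cells and follicular helper T cells (Tfh cells) into follicles. Lymphotoxin, signalling through the non-canonical NF-kB pathway, sustains its production there, and macrophages and T cells can also make it. Microglia are the resident macrophages of the brain, and monocyte-derived macrophages enter it from blood.

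Cxcl13 (ENSMUSG00000023078) lies on the forward strand at chr5:95956951-95961068 and Cxcr5 (ENSMUSG00000047880) on the reverse strand at chr9:44511787-44561877, in GENCODE M21 (build GRCm38). The 250 bases before the RefSeq start of Cxcl13 (GRCm38.p6, chr5:95956689-95956938, forward strand) are shown for the letters of an NF-kB site and a TATA box, both in capitals. RefSeq's table gave no entry for Cxcr5.

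Cxcl13 promoter: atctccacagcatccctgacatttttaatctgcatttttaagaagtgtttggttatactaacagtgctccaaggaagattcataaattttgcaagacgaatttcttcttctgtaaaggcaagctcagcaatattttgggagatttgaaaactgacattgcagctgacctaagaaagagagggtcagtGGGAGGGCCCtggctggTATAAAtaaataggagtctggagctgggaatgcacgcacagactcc

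The letters of an NF-kB site, searched as GGGA, any 4 bases and CC, occurred once as GGGAGGGCCC, from base -63 relative to the start, and TATAAA once, from base -46; these matches do not overlap. Both strands were searched. Of 32851 mouse promoter windows, cut to the same 250 bases, 17.6% hold the first and 12.4% the second. The letters of an interferon-stimulated response element, searched as GAAA, any 2 bases and GAAA (2.98% of windows), and GAGGAA of a PU.1 site (23.3%) are not in this window. A match is a description of the letters and was not tested as a binding site.

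The libraries held between 1410 and 5856 cells, with a median of 4479 to 9554 UMIs per cell. The 23 deposited cell annotations were joined into 9 classes, and 11 of 12 microglia markers had their highest level in the microglia class. Of 8 monocyte-derived markers only Arg1, Ms4a7 and Tgfbi were highest in the monocyte-derived class, where the list summed to 4430 CPM, against 6363 CPM in plasmacytoid dendritic cells and 4753 CPM in B cells. Microglia were few: 30, 21, 13 and 49 cells in KO 1 to KO 4 and 113, 92 and 96 cells in WT 1 to WT 3. Siglece had 2, 1, 0 and 0 UMIs in the microglia of KO 1 to KO 4 and 20, 19 and 7 in those of WT 1 to WT 3, which is 10.7, 19.6, 0 and 0 CPM (UMIs per 1000000 UMIs) against 36.1, 45.9 and 18.6 CPM, so that KO 2, on 1 UMI, lay just above WT 3. Sall1, the locus of the driver, had 9, 2, 4 and 12 UMIs against 72, 60 and 34, or 48.2, 39.1, 108 and 66.6 CPM against 130, 145 and 90.1 CPM, with KO 3 above WT 3. Barcodes that occur in more than 1 library numbered 460 and covered 3.23% of the cells; 6 of the Cxcl13-positive and 15 of the Cxcr5-positive cells carry one. Nothing in the labels says how doublets were treated, and none were removed here.

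Cxcl13 was found in few cells, and a small number of these held most of it. Its 1511 UMIs lay in 308 cells, of which 234 had a single UMI, while 46 cells with 5 or more UMIs held 1212 UMIs (80.2%). The highest cell had 140. By summed UMIs, the macrophages that the authors annotate as P5 held 904 UMIs (59.8% of all), and the microglia class held 252 (16.7%). By level, the annotation Microglia stood first, at 230 ± 144 CPM (mean ± SD over the 3 WT mice, the only mice with 20 or more such cells). Low-quality/activated microglia followed at 37.0 ± 77.3 CPM (n = 5), macrophages P5 at 33.2 ± 32.7 (n = 7) and proliferating macrophages at 15.7 ± 36.4 (n = 6). The place of Microglia rests on WT mice and on the values Cxcl13 was selected on, so the step down from it is a description. Among the other annotations no neighbours in the order differed beyond their spread.

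**Figure D1:**
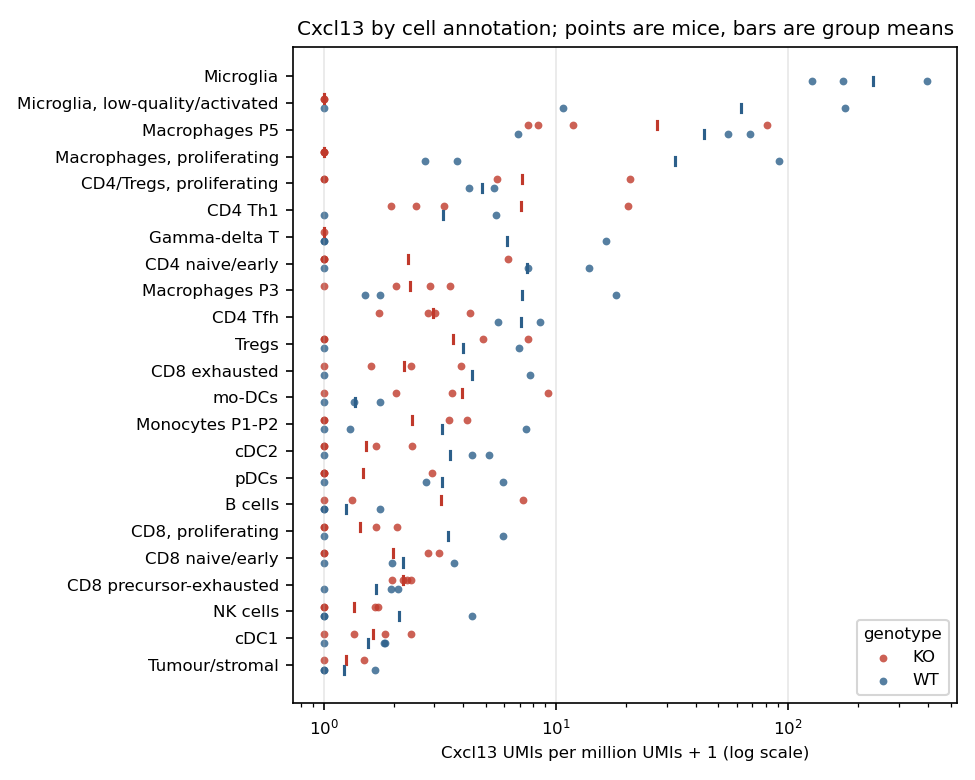
Cxcl13 level by cell annotation, as UMIs per 1000000 UMIs plus 1 on a log axis. Each point is 1 mouse with at least 20 cells of the annotation, coloured by genotype, and bars are group means. Microglia of the 3 WT mice stand highest, and macrophages P5 are the highest annotation that all 7 mice fill.

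In microglia the UMIs of WT mice sat in a handful of cells. The class held 145, 57 and 48 Cxcl13 UMIs in WT 1, WT 2 and WT 3 (262, 138 and 127 CPM) and 0, 0, 0 and 2 in KO 1 to KO 4 (0, 0, 0 and 11.1 CPM). All 3 WT mice lay above all 4 KO mice, which is the pattern Cxcl13 was chosen for. The WT UMIs came from 4, 8 and 6 cells, and 1 cell of WT 1 held 95 of them. Without the highest cell of each mouse the WT levels were 92.8, 82.4 and 76.9 CPM and that of KO 4 was 5.74 CPM. Of WT microglia, 18 of 301 (5.98%, 95% exact binomial interval 3.58 to 9.29%) had a UMI, against 2 of 113 KO microglia (1.77%, 0.215 to 6.25%). These intervals cover counting error only.

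Most of the brightest cells carried the annotation Microglia rather than low-quality/activated microglia. Cells with 5 or more UMIs numbered 4, 3 and 3 in this annotation in WT 1 to WT 3, which is 10 of 131 cells (7.63%, interval 3.72 to 13.6%). KO mice had only 32 cells there (10, 7, 0 and 15), and 0 of them had 5 or more UMIs, which allows a share of up to 9.38% by counting error alone. These cells are pooled over mice, and the values are those Cxcl13 was selected on, so no comparison of genotypes is drawn from them. Cells with any UMI were 14 of 131 in WT (10.7%) and 2 of 32 in KO (6.25%). Low-quality/activated microglia added 1 bright cell of 170 in WT and 0 of 81 in KO. Over the class, 11 of 301 WT cells and 0 of 113 KO cells were bright.

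**Figure D2:**
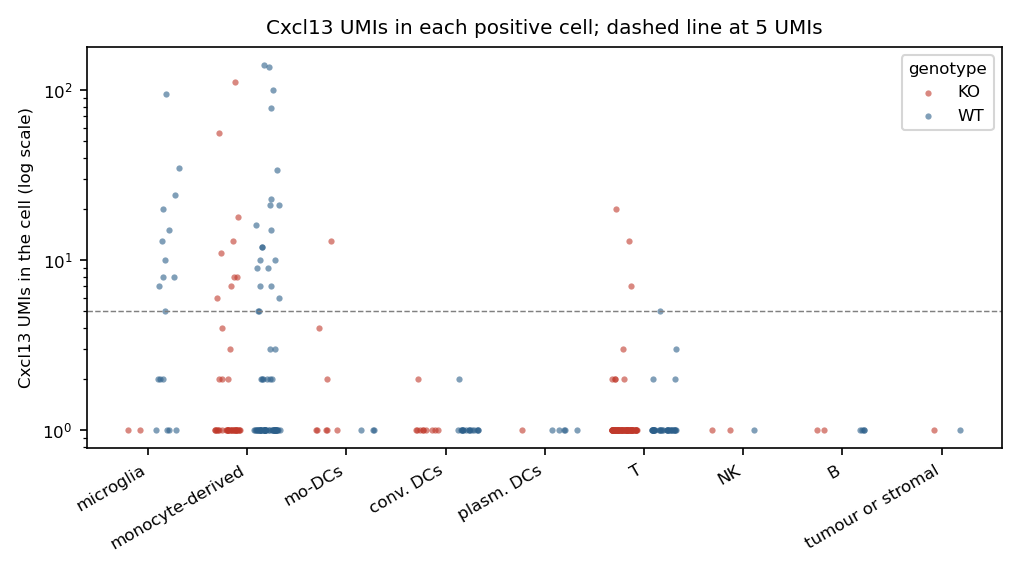
Cxcl13 UMIs in each cell with at least 1, on a log axis, by cell class and genotype; points are cells, spread sideways for visibility, and the dashed line marks 5 UMIs. Bright cells lie mostly in WT microglia and in monocyte-derived cells of both genotypes, with 4 among T cells and 1 among mo-DCs. Positive B cells, NK cells and plasmacytoid dendritic cells all have 1 UMI.

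Cxcl13 was not absent from KO myeloid cells. In macrophages P5, each KO mouse had at least 1 bright cell: 1, 1, 1 and 6 in KO 1 to KO 4, against 2, 8 and 6 in WT 1 to WT 3. The summed UMIs were 18, 30, 13 and 206 in KO (6.58, 10.9, 7.40 and 80.1 CPM) and 37, 301 and 299 in WT (5.90, 54.1 and 67.3 CPM). KO 4 was the highest and WT 1 the lowest of the 7 mice, so the groups overlap throughout. A gene was called where edgeR's quasi-likelihood test gave a p, after Benjamini-Hochberg adjustment, below 0.05. In macrophages P5 this held for 0.0188% of 10633 genes (0.0873% in DESeq2). For Cxcl13 the log2 fold change KO over WT was -0.64 (SE 1.21, edgeR adjusted p = 0.951). It moved to -2.34 without KO 4 and to -0.12 without WT 3, neither past the threshold. Cells with a UMI made up 2.23% of macrophages P5 in KO and 2.07% in WT as means over mice; after thinning every cell to 1500 UMIs they were 1.05 ± 0.655% over the 4 KO mice and 1.05 ± 0.483% over the 3 WT mice, with a two-sided exact permutation p of 1. Here and elsewhere the smallest p that 4 mice against 3 allow is 0.0286.

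Over all monocyte-derived cells, which join monocytes with macrophages P3, P5 and proliferating macrophages, Cxcl13 had 19, 37, 13 and 212 UMIs in KO 1 to KO 4 (4.06, 6.52, 3.51 and 37.6 CPM). The WT mice had 44, 390 and 304 UMIs (3.28, 39.8 and 26.2 CPM). Again KO 4 lay with WT 2 and WT 3, and WT 1 lay with the other KO mice. The log2 fold change was -0.77 (SE 1.08, edgeR adjusted p = 0.961). It moved to -2.27 without KO 4 (edgeR adjusted p = 0.610) and to -0.15 without WT 2. In this class 0% of 11944 genes were called by edgeR, 675 had an unadjusted p under 0.05, and DESeq2 called 20 (0.135%). The thinned share of positive cells was 0.617 ± 0.328% in KO and 0.736 ± 0.593% in WT (two-sided exact permutation p = 0.686, adjusted over 5 shares 0.857). Leaving out single mice moved the difference between -0.338 and 0.218 percentage points, so its direction was not stable. Within the class, macrophages P3 had 1, 5, 0 and 3 UMIs in KO and 1, 47 and 3 in WT. Proliferating macrophages had 0 in all KO mice and 5, 35 and 2 in WT, of which 34 were in 1 cell. Monocytes had 13 UMIs in 12 of 1521 cells.

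Free RNA in the droplets can give single UMIs to cells that do not express a gene, so shares in other classes serve as background. Of NK cells 3 of 909 (0.330%, median 5126 UMIs per cell), of B cells 6 of 840 (0.714%, median 7302) and of plasmacytoid dendritic cells 6 of 541 (1.11%, median 6519) had a Cxcl13 UMI, and none of these cells had more than 1. Conventional dendritic cells, at a median of 11238.5 UMIs, had 26 positive cells of 2818 (0.923%), none above 2 UMIs. The share in monocytes, 0.789%, lies among these values. That in macrophages P3, 1.19%, lies just above them, and 3 of its cells, all of WT 2, had 5 or more UMIs, with up to 16. Microglia at 4.83% (median 3058.5 UMIs) and macrophages P5 at 2.17% (median 6437) stand above them. The microglia share joins 18 of 301 WT cells (5.98%) with 2 of 113 KO cells (1.77%), and the interval of the KO share covers the background shares. It rests on the values Cxcl13 was selected on and is a description.

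T cells held 168 Cxcl13 UMIs in 117 of 13692 cells (0.855%, median 4748 UMIs per cell), a share within the background range; Th1-annotated cells (1.92%), proliferating CD4+ cells and Tregs (1.93%), with Tregs (1.51%), lay above it. Their UMIs were 6, 12, 23 and 83 in KO 1 to KO 4 (1.13, 1.08, 1.05 and 4.54 CPM) and 0, 31 and 13 in WT 1 to WT 3 (0, 4.38 and 1.56 CPM). The log2 fold change was -0.17 (SE 0.79, edgeR adjusted p = 0.990; 0% of 13043 genes called, 855 at an unadjusted p under 0.05, 32 or 0.226% called by DESeq2), and it turned positive when KO 2, KO 3 or WT 2 was left out. A single UMI was all that 105 of the positive T cells had. The 4 with 5 or more were a proliferating CD4+ cell (20 UMIs) and a Th1-annotated CD4+ cell (13) of KO 4, a precursor-exhausted CD8+ cell of KO 3 (7) and a Tfh-annotated cell of WT 2 (5). In these 4 cells 6 macrophage genes (C1qa, C1qb, C1qc, Csf1r, Cd68 and Adgre1, chosen after the cells were seen) summed to 259 CPM, against 312 CPM in Cxcl13-negative T cells and 13213 CPM in monocyte-derived cells. The T cell markers summed to 4802 CPM in them and to 4731 CPM in Cxcl13-negative T cells, and the conventional dendritic cell markers to 317 and 150 CPM. Over all T cells, Ccr7 alone gave 137 of the 151 CPM of the dendritic cell list. All 4 are in the S or G2M phase by the deposited calls, against 33.7% of Cxcl13-negative T cells, with a median of 8905 against 4751 UMIs. The part of these differences in their Cxcl13 UMIs was not tested.

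Dendritic cells gave few UMIs. In mo-DCs (monocyte-derived dendritic cells) Cxcl13 had 14, 3, 0 and 7 UMIs in KO and 2, 1 and 0 in WT, and 13 of the 14 in KO 1 lay in 1 cell. The log2 fold change was 2.51 (SE 1.21, edgeR adjusted p = 0.675) and moved between 1.50 and 3.26 when single mice were left out. Of 10503 genes edgeR called 0%, 799 had an unadjusted p under 0.05, and DESeq2 called 26 (0.296%). Conventional dendritic cells had 1, 2, 1 and 7 UMIs in KO and 4, 9 and 4 in WT, with a log2 fold change of -0.65 (SE 0.63, edgeR adjusted p = 0.881; 0% of 11754 genes called, 819 at an unadjusted p under 0.05, 14 or 0.0971% called by DESeq2). In the dendritic cells annotated cDC2 the 11 UMIs gave -2.13 (SE 1.11, edgeR adjusted p = 0.560; 0% of 7854 genes called, 761 at an unadjusted p under 0.05, 33 or 2.54% of 1298 called by DESeq2).

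Follicular dendritic cells, which make Cxcl13 in lymphoid follicles, are not among the annotations, 1 annotation joins tumour and stromal cells, and the sort keeps CD45+ and/or CD11b+ cells. The 7 markers of follicular dendritic and stromal cells (Cr2, Pdpn, Pdgfrb, Col1a1, Col1a2, Dcn and Madcam1) summed to 69.4 CPM in tumour or stromal cells, 70.2 CPM in monocyte-derived cells, nearly all of it Pdpn, and under these levels elsewhere. Tumour or stromal cells had 2 Cxcl13 UMIs among 384 cells. In Cxcl13-positive microglia these markers summed to 6.46 CPM and in Cxcl13-negative microglia to 13.4 CPM. Monocyte-derived cells had 42.2 CPM in positive and 70.7 CPM in negative cells. T cells went the other way, at 18.5 against 3.34 CPM (2.56% against 1.30% of cells with a UMI of one). With 117 positive T cells, that contrast rests on very few cells.

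The Cxcl13-positive cells of microglia and of monocyte-derived cells were next set beside the negative cells of the same class. In WT microglia all 12 microglia markers were lower in the 18 positive cells than in the 283 negative cells when pooled over mice. By mouse, Sall1 (204 against 138 CPM) and Crybb1 (159 against 149 CPM) were higher in the positive cells of WT 2. Pooled, the ADP receptor P2ry12 stood at 97.2 against 649 CPM, the fractalkine receptor Cx3cr1 at 403 against 1021 and Tmem119 at 465 against 949. Summed, the markers were at 5118, 5539 and 4783 CPM in positive cells of WT 1, WT 2 and WT 3, and at 12637, 13210 and 9662 CPM in negative cells. With 4, 8 and 6 positive cells, fewer than the 10 per mouse set for a fit, no test was made. Over all 7 mice, positive microglia had more UMIs per cell than negative ones (medians of 5535 and 2974). Their summed monocyte-derived markers were at 252 against 461 CPM and their border-associated macrophage markers at 45.2 against 78.1 CPM, so neither list was higher in them. The part of depth in the lower marker levels was not tested.

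In monocyte-derived cells the microglia markers went the other way. Summed, they were higher in the positive cells of every mouse, from 1.13 times in KO 3 (3 positive cells) to 3.51 times in WT 3 (18 positive cells), and pooled over mice at 2311 against 1356 CPM. The 30 cells with 5 or more Cxcl13 UMIs stood at 3487 CPM. Pooled over mice, the median depth was 6299 UMIs in positive and 6242 in negative cells, but by mouse it differed in both directions. In WT 3, where the marker ratio was highest, positive cells had a median of 7942 and negative cells of 5644 UMIs, while in KO 3 they had 5103 and 8108.5. The part of depth in the marker levels was not tested beyond the thinning given with the fit. The summed monocyte-derived markers were lower in positive cells (3093 against 4453 CPM), as were those of border-associated macrophages (395 against 553 CPM). The summed B cell markers were higher in positive cells, at 129 against 79.5 CPM, and at 192 CPM in the 30 bright cells. In the fit below 2 B cell markers were tested, and 0 passed. Positive cells were not spread over the annotations like negative ones: 75 of 117 were macrophages P5, against 3384 of 7360. Within macrophages P5 the summed microglia markers stood at 2775 against 1871 CPM and the monocyte-derived markers at 2247 against 2736 CPM, smaller gaps than over the class. Sall1, the defining gene of microglia among these markers, was at 11.1 CPM in the positive and 0.952 CPM in the negative cells, against 76.4 CPM in positive WT microglia.

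Several of these markers were found in positive cells of WT mice alone, and others in those of both genotypes. The 10 Sall1 UMIs of positive monocyte-derived cells lay in WT 1 (3), WT 2 (3) and WT 3 (4), which is 13.7, 7.61 and 33.2 times the level in negative cells. Crybb1 had 9, 9 and 14 UMIs there (11.3, 7.02 and 29.8 times the negative cells) and Siglech 4, 6 and 8 (5.73, 2.50 and 18.6 times). In the positive cells of the KO mice (6, 17, 3 and 18 cells) these 3 genes had 0 UMIs and Sparc had 1, against 13, 35 and 30 in WT. Crybb1 was also low in negative cells of the KO mice, at 0 to 0.875 CPM. Sall1 was at 0 CPM in negative cells of KO 1, KO 2 and KO 3 and at 0.543 CPM in those of KO 4, against 2.03, 1.27 and 0.786 CPM in WT 1 to WT 3. Whether the positive cells of the genotypes differ in these genes was not tested.

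**Figure D3:**
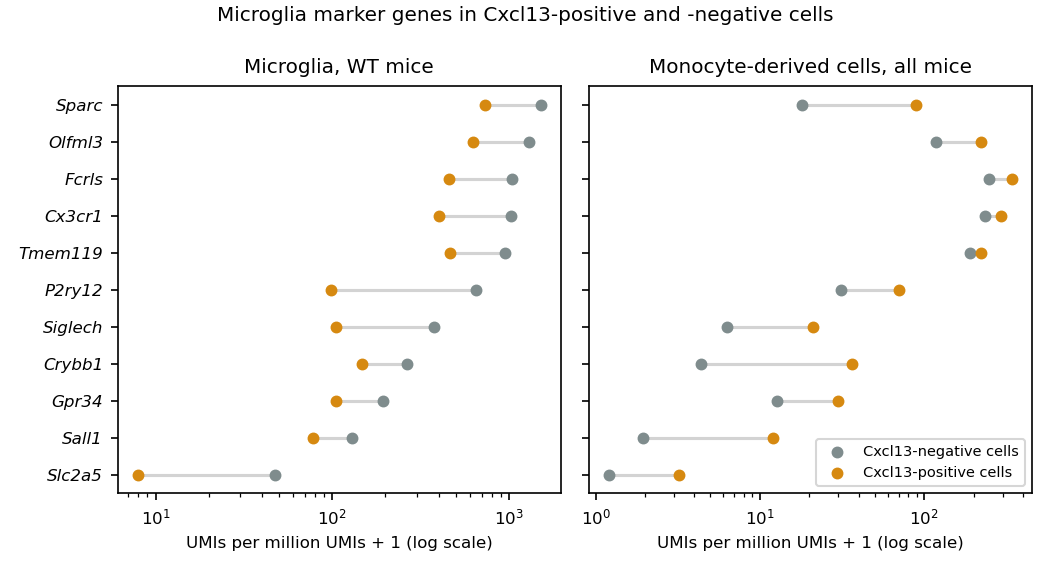
The microglia marker genes, 11 of the 12 shown, in Cxcl13-positive (orange) and Cxcl13-negative (grey) cells, as UMIs per 1000000 UMIs plus 1 on log axes, pooled over WT microglia (left, 18 positive cells) and over monocyte-derived cells of all mice (right, 117 positive cells). Pooled in this way, every marker shown is lower in positive microglia and higher in positive monocyte-derived cells. By mouse, single markers went the other way, among them Tmem119 in monocyte-derived cells of WT 1 and WT 2 (0.861 and 0.773 times the negative cells).

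A fit with the mouse as a block compared positive with negative monocyte-derived cells in the 5 mice that had at least 10 of each (KO 2, KO 4 and the WT mice). Over all mice, 74 of the 117 positive cells of the class had a single UMI. The class share of 1.56% lies near the background shares of up to 1.11%, and the part of background UMIs in this split was not tested. Of 10282 genes, 151 (1.47%) passed in edgeR's quasi-likelihood test, 28 higher and 123 lower in positive cells. Of the microglia markers 10 of 12 were tested, 5 rose and none fell, among them Crybb1, a crystallin (log2 fold change 3.56), Siglech (2.11), P2ry12 (1.12) and Olfml3 (0.84). Crybb1 and Siglech were higher in the 3 WT mice and at 0 in the positive cells of KO 2 and KO 4. Of the 8 monocyte-derived markers, all tested, 3 fell and none rose: Arg1, an arginase of alternatively activated macrophages (-1.27), Plac8 (-0.86) and Tgfbi (-0.44). None of the 4 border-associated macrophage markers tested passed.

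Among the 12 called genes that were higher in all 5 mice, Olfml3, a secreted glycoprotein of microglia, stood at 224 ± 62.7 CPM in positive and 118 ± 37.0 CPM in negative cells (adjusted p = 0.000581, edgeR). P2ry12 was at 73.2 ± 35.2 against 30.2 ± 8.15 CPM (adjusted p = 0.00392, edgeR). The complement genes C1qa and C1qc rose by 0.38 and 0.35 on the log2 scale, the tetraspanin Cd81 by 0.66 and Cryba4, another crystallin, by 2.01. Ccnb2, a cyclin of dividing cells, rose by 1.31, and Vill, H2az2, Ly86 and Itm2b by 1.06, 0.74, 0.43 and 0.36.

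The genes lower in Cxcl13-positive cells in all 5 mice numbered 86. A mouse with 0 UMIs of a gene in its positive cells counted as lower, while a rise needed a UMI there. Positive cells numbered 17 and 18 in KO 2 and KO 4 and 12, 43 and 18 in WT 1 to WT 3. Sparse genes meet the rule for falls more easily, so this count cannot be set against that of the rises. Cxcl1, a chemokine that draws neutrophils, stood at 29.8 ± 56.6 CPM in positive and 141 ± 69.3 CPM in negative cells (log2 fold change -2.57, edgeR adjusted p = 1.26e-12). Slpi, a secreted protease inhibitor, was at 25.1 ± 18.6 against 158 ± 195 CPM (-2.31, edgeR adjusted p = 1.01e-11). Inhba, the subunit of activin A, was at 1.28 ± 2.87 against 45.2 ± 36.0 CPM (-4.07, edgeR adjusted p = 7.53e-08). The cystine transporter Slc7a11 fell by 2.03 and the VEGF receptor Flt1 by 2.92 on the log2 scale. Kynu, Gpat3, Gm5424, Tarm1, Id1 and Noct were also among the 12 with the largest falls, between -3.48 and -1.61. Of the lists on lymphoid chemokines, lymphotoxin with NF-kB and the Tfh programme, 1 tested member each fell, Tnf and Prdm1 among them, and none rose, of 6, 14 and 11 tested.

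These counts depended on the fit. DESeq2 called 2 genes higher and 13 lower, macrophages P5 alone gave 10 and 22, leaving out WT 3 gave 11 and 52, cells thinned to 1500 UMIs (2 mice left) gave 0 and 18, and a fit without the mouse block called none. P2ry12 turned to -1.08 and C1qc, Itm2b and H2az2 to values between -0.056 and -0.53 after thinning, as did Ccnb2 and Vill at -6.89 and -7.56, while Slpi turned to 0.37 in macrophages P5 alone; Olfml3 stayed positive in all 11 alternatives and past the threshold in 7. Itm2b and H2az2 were past it in 1 of 11 alternatives, Ly86 and Tnf in 2 of 11, Vill in 2 of 10, and Kynu and Noct in 1 of 10. Without WT 3, P2ry12 (0.73), Siglech (1.35), Cd81 (0.38), C1qa (0.24) and C1qc (0.22) no longer passed, nor did Tgfbi (-0.27) without WT 1. Falls were larger without WT 2 for Id1 (-3.18) and without KO 4 for Cxcl1 (-3.89). The values of Inhba without WT 2 (-10.9) and of Kynu without KO 2 (-8.94) do not measure a larger fall. Both genes were near 0 in positive cells in the main fit, at 1.28 ± 2.87 and 2.11 ± 4.73 CPM.

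Cxcr5 was spread over more cells, at low counts per cell. Its 601 UMIs lay in 460 cells, with at most 8 in a cell. By level, the dendritic cells annotated cDC2 came first at 42.5 ± 24.6 CPM (n = 7), followed by B cells at 37.2 ± 29.9 CPM (n = 6, without KO 1, which had 8 B cells); this pair did not differ beyond its spread. Th1-annotated CD4+ cells were the third at 3.97 ± 4.16 CPM (n = 6), and the step down to them from B cells was larger than the SD. Naive/early activated CD4+ cells (3.30 ± 3.15 CPM), proliferating CD4+ cells and Tregs (2.71 ± 2.59) and naive/early activated CD8+ cells (2.03 ± 1.92) came next, and Tfh-annotated cells stood seventh at 1.67 ± 2.15 CPM. No later neighbours differed beyond their spread. Microglia (0 of 414 cells, which allows a share of cells with a UMI of up to 0.725% and sets no limit on cells that express the gene), plasmacytoid dendritic cells (0 of 541), proliferating CD8+ cells and gamma-delta T cells had 0 UMIs. In monocyte-derived cells, taken as background, 8 of 7477 cells (median 6245 UMIs) had a UMI.

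**Figure D4:**
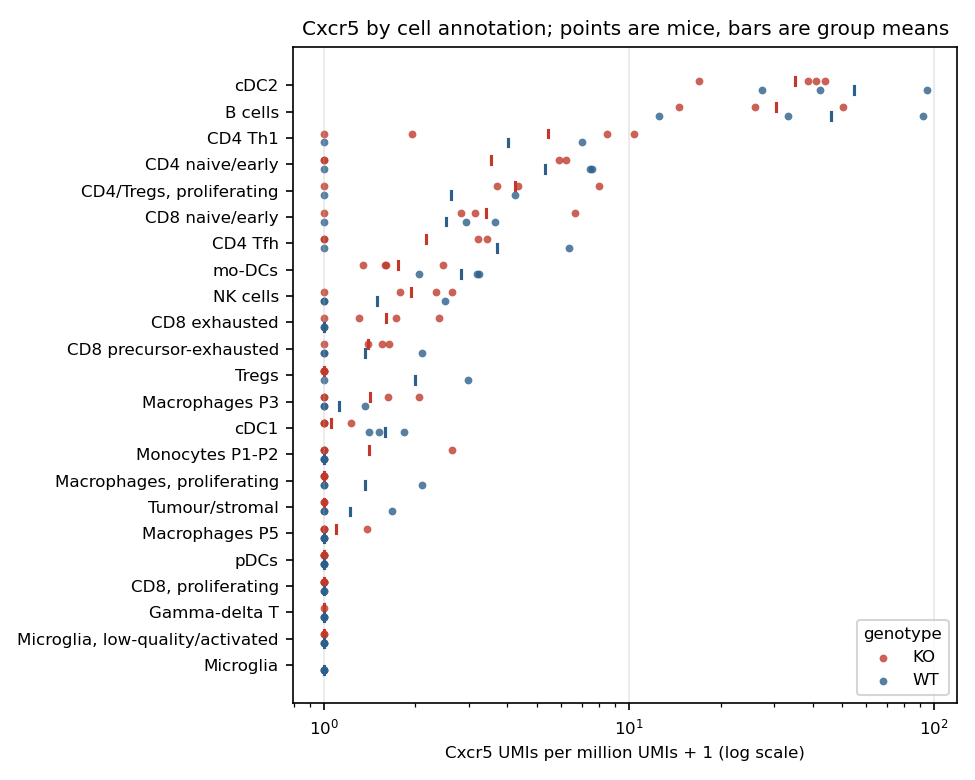
Cxcr5 level by cell annotation, as UMIs per 1000000 UMIs plus 1 on a log axis; points are mice with at least 20 cells of the annotation and bars are means of the KO and WT groups. The annotations cDC2 and B cells lie apart from all others, and the genotypes overlap in both.

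Cxcr5 in cells annotated cDC2 had 303 UMIs in 221 of 954 cells, 50.4% of all its UMIs. Its UMIs were 20, 18, 27 and 59 in KO 1 to KO 4 (42.8, 16.0, 37.6 and 40.1 CPM) and 90, 62 and 27 in WT 1 to WT 3 (93.7, 41.4 and 26.2 CPM). WT 1 was the highest and KO 2 the lowest mouse, and the groups overlap. The log2 fold change was -0.76 (SE 0.48, edgeR adjusted p = 0.657). Positive cells were 30.4, 8.50, 31.8 and 24.0% in KO and 43.2, 21.3 and 18.0% in WT. After thinning to 1500 UMIs the shares were 4.97 ± 1.51% and 8.26 ± 5.98%, a difference of -3.29 percentage points (two-sided exact permutation p = 0.343, adjusted over 5 shares 0.857) that became 0.0957 without WT 1.

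The name of this annotation is only partly borne out by its markers. Its cells had the highest levels of Ccr7 (3771 CPM) and Fscn1 (5286 CPM), a receptor and an actin-bundling protein of mature, migrating dendritic cells, and of Flt3 (257 CPM) and Zbtb46 (176 CPM), which mark conventional dendritic cells. Cd209a, a gene of type 2 conventional and monocyte-derived dendritic cells, stood at 0.138 CPM there, against 49.2 CPM in mo-DCs. Ccr7 was at 45.8 CPM in cDC1 and 244 CPM in mo-DCs. Of the genes on non-canonical NF-kB, the kinase Map3k14 (260 CPM) and the subunits Nfkb2 (328 CPM) and Relb (632 CPM) all had their highest level among the 23 annotations in these cells. The other annotated conventional dendritic cells, cDC1, had 9 Cxcr5 UMIs in 1864 cells. Over conventional dendritic cells the log2 fold change of Cxcr5 was -0.53 (SE 0.56, edgeR adjusted p = 0.891), and without WT 1 it was 0.024.

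Cxcr5-positive and Cxcr5-negative cells annotated cDC2 were compared in all 7 mice with the mouse as a block. None of 4744 genes (0%) passed in edgeR, 241 had an unadjusted p under 0.05, and DESeq2 called none. Positive cells were deeper, with medians of 7689 and 6085 UMIs. In mo-DCs, 19 Cxcr5 UMIs lay in 15 of 1569 cells, whose conventional dendritic cell markers summed to 2552 CPM, against 546 CPM in Cxcr5-negative mo-DCs. Their log2 fold change between the genotypes was -1.15 (SE 0.71, edgeR adjusted p = 0.749).

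Cxcr5 in B cells, where the receptor has its textbook role, had 164 UMIs in 118 of 840 cells. The UMIs were 1, 4, 24 and 41 in KO 1 to KO 4 (10.8, 25.0, 49.3 and 13.6 CPM) and 29, 61 and 4 in WT 1 to WT 3 (91.3, 11.5 and 32.3 CPM). WT 1 was the highest mouse and KO 1, whose single UMI came from 8 cells, the lowest. With KO 1 left out, the log2 fold change was -0.58 (SE 0.77, edgeR adjusted p = 0.999; 0% of 4649 genes called, 44 at an unadjusted p under 0.05, 2 or 0.0106% called by DESeq2), and it turned to 0.71 without WT 1. Thinned shares of positive cells were 8.72 ± 2.94% in KO and 7.43 ± 4.57% in WT (n = 3 each; two-sided exact permutation p = 0.6, where 0.1 is the smallest possible, adjusted over 5 shares 0.857). At 3000 UMIs, with fewer cells left, the difference turned from 1.30 to -11.3 percentage points.

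B cells with and without a Cxcr5 UMI differed in many genes. In the 4 mice with at least 10 of each (KO 3, KO 4, WT 1 and WT 2), 257 of 3451 genes (7.45%) passed in edgeR with the mouse as a block, 60 higher and 197 lower in positive cells. Of the 9 B cell markers 8 were tested, 3 rose and none fell, among them Pax5, a transcription factor of B cell identity (1.61 on the log2 scale), and Ms4a1, which encodes CD20 (1.10). Pax5 was at 72.0 ± 40.5 CPM in positive and 29.4 ± 27.5 CPM in negative cells (edgeR adjusted p = 0.0445). Also higher in all 4 mice were the chemokine receptor Ccr6 (1.86), the costimulatory ligand Cd86 (1.63), the early response gene Nr4a1 (1.61) and Bcl11a (1.72). Bcl2a1b and Bcl2a1d (2.16 and 2.04) are near-identical copies, so their separate values are uncertain. Kynu, Vps37b, Tor3a, Lrmp and Pdlim1 were the others among the 12 largest rises, between 1.58 and 2.13.

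Of the genes lower in Cxcr5-positive B cells, Xbp1, a transcription factor of plasma cells, stood at 113 ± 153 CPM in positive and 900 ± 499.8 CPM in negative cells (log2 fold change -3.89, edgeR adjusted p = 0.000529). Creld2 fell by 3.49, Derl3 and Edem1, which take part in the degradation of misfolded proteins, by 3.38 and 3.06, and Lman1 and Ergic1, which are found on the way from the endoplasmic reticulum to the Golgi, by 2.94 and 2.89 on the log2 scale. They are named as single genes among the largest falls, and no list of such genes was examined. The immunoglobulin genes Ighv1-81 (-7.90), Ighg2b (-6.23) and Igkv6-25 (-4.17) belong to families with near-identical members, so their values are uncertain. Ly6c2 and the histone genes Hist1h2ap and H2ac8 made up the rest of the 12 largest falls, between -3.35 and -2.94. Positive B cells were shallower than negative ones, with medians of 3504.5 and 9609 UMIs, and the part of depth in these differences was not tested beyond thinning. Conventional dendritic cell markers summed to 714 CPM in positive and 144 CPM in negative B cells, and 75.4% against 51.0% of these cells had a UMI of one. Over all B cells, Ccr7 alone gave 122 of the 197 CPM of this list. Its part in the sum of the Cxcr5-positive B cells is not given here. No doublets were removed, and the part of doublets in these differences was not tested. Thinned to 1500 UMIs (3 mice), 1 gene was higher and 34 lower, leaving out KO 4 gave 7 and 89, WT 1 137 and 331, WT 2 2 and 50 and KO 3 114 and 242, and without the mouse block none were called.

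In T cells Cxcr5 had 92 UMIs in 83 of 13692 cells: 7, 6, 12 and 40 UMIs in KO 1 to KO 4 (1.32, 0.539, 0.550 and 2.19 CPM) and 1, 24 and 2 in WT 1 to WT 3 (0.590, 3.39 and 0.239 CPM). The groups overlap, with a log2 fold change of -0.38 (SE 0.85, edgeR adjusted p = 0.960) that turned to 1.84 without WT 2. Th1-annotated cells held 29 UMIs, naive/early activated CD8+ cells 14, proliferating CD4+ cells and Tregs 13, and Tfh-annotated cells 11, in 9 of 1364 cells (0.660%). That share lies above the 0.107% of monocyte-derived cells (median 6245 UMIs per cell) and near the 0.550% of NK cells (5 of 909 cells, median 5126), with a median of 3740 UMIs in Tfh-annotated cells. Conventional dendritic cell markers summed to 450 CPM in Cxcr5-positive and 149 CPM in Cxcr5-negative T cells (49.4% against 16.6% of cells with a UMI of one). B cell markers summed to 87.0 against 51.2 CPM. Ccr7 alone gave 137 of the 151 CPM of the dendritic cell list over all T cells. Its part in the sum of the Cxcr5-positive T cells is not given here. The part of dendritic or B cells in the Cxcr5 UMIs of T cells was not tested. Thinned shares in Tfh-annotated cells were 0.145 ± 0.204% over the 4 KO mice and 0.394 ± 0.557% over 2 WT mice (two-sided exact permutation p = 0.533, where 0.0667 is the smallest possible). With at most 4 positive cells in a mouse, positive and negative Tfh-annotated cells could not be compared.

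The Tfh name was set against 21 genes of the follicular helper programme, compared among the CD4+ annotations. Tfh-annotated cells had the highest level of 5: Bcl6, the lineage factor of Tfh cells (29.9 CPM), the cytokine Il21 (54.6), the ligand Cd40lg (113), Pdcd1 (863) and Id2 (1119), of which Id2 is known to oppose the programme. Th1-annotated cells were highest for 5 others (Batf, Btla, Sh2d1a, Tox and Tox2) and lay close in Bcl6 (28.1 CPM) and Pdcd1 (861 CPM). Tregs were highest for 6 and naive/early activated cells for 5.

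**Figure D5:**
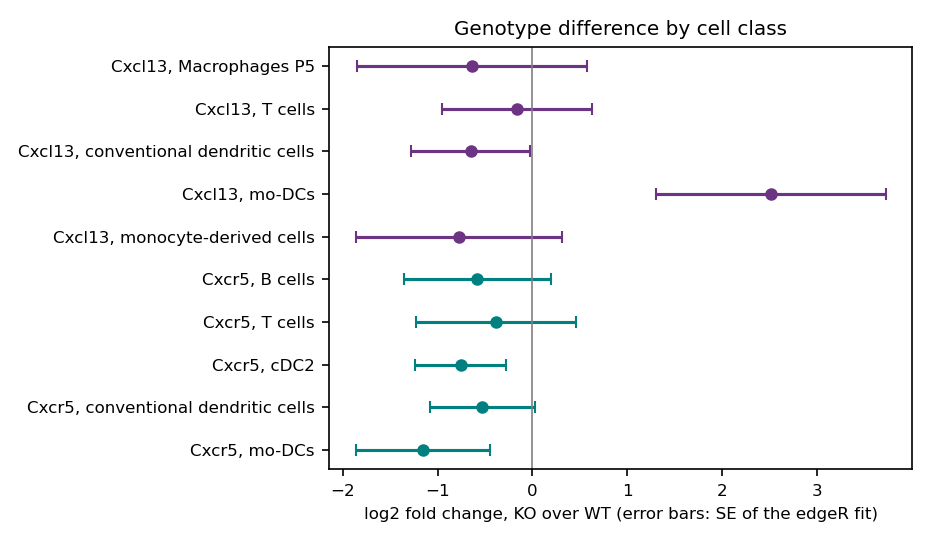
Log2 fold change KO over WT of Cxcl13 and Cxcr5 in the fitted classes, macrophages P5 and cDC2 that held at least 10 UMIs, other than Cxcl13 in cDC2; microglia and the other annotations were not fitted; points are edgeR estimates and bars their SE. The 5 estimates drawn for Cxcr5 lie below 0 and that of Cxcl13 in mo-DCs is the one above 0, and none passed the threshold.

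Of the 53 other genes on 3 lists, 235 tests were made in 8 classes. The lists covered lymphoid chemokines and their receptors (15 genes), lymphotoxin with non-canonical NF-kB (17) and the Tfh programme (21). None passed between the genotypes in edgeR, where 29 tests (12.3%) had an unadjusted p under 0.05, against 6.32% of all genes in the same fits, and DESeq2 called 1, Pdcd1 in monocyte-derived cells. Among all genes edgeR called 0.045% in plasmacytoid dendritic cells, 0.0141% in NK cells, 0.0288% in tumour or stromal cells and 0% in the other 5 classes, while DESeq2 called 0.0238%, 0.0275% and 0.122% in the first 3 of these. In T cells, 7 of 7 tested lymphoid chemokine and receptor genes had a negative log2 fold change (median -0.66, against 0.01 over all 13043 genes), as did 12 of 17 lymphotoxin genes (median -0.22) and 14 of 19 Tfh genes (median -0.33). Other classes went both ways. In conventional dendritic cells 12 of 15 tested Tfh genes were positive (median 0.26), as were 11 of 15 in mo-DCs (0.27). Lymphoid genes were mostly positive in tumour or stromal cells (3 of 3, median 0.34), plasmacytoid dendritic cells (3 of 4) and NK cells (3 of 4). They were mostly negative, as in T cells, in monocyte-derived cells (6 of 7), mo-DCs (5 of 7), conventional dendritic cells (5 of 7) and B cells (4 of 5). Lymphotoxin genes were also negative in NK cells (10 of 10, median -0.32). The T cell class differed in make-up: precursor-exhausted CD8+ cells were 4450 of 10617 KO and 626 of 3075 WT T cells. The part of this mix in the T cell fold changes, also those of Cxcl13 and Cxcr5, was not tested. Ltb, the membrane anchor of lymphotoxin, was at 322 CPM in T cells, and Lta at 39.8 CPM. Ltbr, the lymphotoxin receptor, was at 84.6 CPM in Microglia and 64.7 CPM in macrophages P5. Cxcl12, Glycam1 and Ackr1 stood at or near 0 in every annotation, and Ccl19 and Ccl21a were not analysed here.

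Genes with a pattern over the 23 annotations most like that of each member were ranked by Pearson's r of log2(CPM + 1), among 15811 genes with at least 100 UMIs. For Cxcl13 they were Speg (r = 0.88), Fam167b (0.87), Lpl (0.85), Smim1 (0.84) and Gal3st4 (0.83), each highest in Microglia. For Cxcr5 they were Oosp1 (0.88), Krt222 (0.87), Zfp296 (0.85), Ift140 (0.80) and Aldh1a2 (0.78), highest in cDC2 except Krt222, which was highest in B cells. The annotations share libraries, so these values are descriptions, with no p.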

How the data were processed

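Droplet 5-prime libraries of 7 mice (4 KO, 3 WT) were analysed. Per the submitters' processing notes, FastQC 0.11.5, STARsolo, STAR 2.7.10a and mm10 were used. The authors deposited expected counts (UMIs per gene and cell, unscaled); 7.51% of the non-zero values are not whole, none of them for Cxcl13 or Cxcr5. The deposited cell table gives the annotation and the percent of mitochondrial UMIs of each cell. Here UMIs were summed per mouse and class or annotation (at least 20 cells) and rounded, since the planned test assumed whole counts. Sums were tested in edgeR 4.0.16 (TMM, filterByExpr with both members kept, robust quasi-likelihood) with Benjamini-Hochberg adjustment over all genes tested (threshold 0.05); DESeq2 1.42.0 was an alternative. SEs were derived from the log2 fold change and its F. The members were tested in 8 classes, macrophages P5 and cDC2, and tests are given where these held at least 10 UMIs. Shares of positive cells were the expected shares after drawing 1500 UMIs from each deeper cell. Intervals are Clopper-Pearson at 95%, and limits for 0 use 3 counts. On simulated data for monocyte-derived cells, 98% of 200 genes changed by a fold of 4 were recovered (12036 genes), and 9 unchanged genes were called. The changed genes were all well counted and the dispersion was fixed. The recovery therefore does not apply to genes as sparse and uneven as Cxcl13 and Cxcr5. Named genes were up to 12 in each direction by fold among those called and changed alike in every mouse, members of the lists, and the 5 most alike genes. Some genes are not reported here. The members, lists and rules were chosen with earlier results of these data known. Doublet handling is not given in the sources used here, and no caller was run. Comparisons within cells annotated cDC2 and macrophages P5, and of Cxcr5-positive with Cxcr5-negative B cells and cDC2, were added after the data were seen. Alternatives were other scaling and filters, a replicate block, thinning, and leaving out each mouse.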

Additional observations from a re-analysis of the deposited data

Results flagged for a closer look

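In 3 of 20 groups of the 4 KO mice examined, 1 mouse lay far from the other 3, as measured by its gap over the whole range. A group was the CPM or the share of positive cells of a gene in a class or annotation, so the groups overlap. Chance gives this in about 1 of 20 groups where values are independent and normally distributed, which was not shown here. Groups of 3 WT mice were not examined. All 3 concern the CPM of Cxcl13 in KO 4, and no share of positive cells was flagged. In monocyte-derived cells KO 4 stood at 37.6 CPM, and the other KO mice between 3.51 and 6.52 CPM. In macrophages P5, which are part of that class, it stood at 80.1 CPM against 6.58 to 10.9 CPM, with 111 of its 206 UMIs in 1 cell and 6 cells with 5 or more UMIs. In T cells KO 4 stood at 4.54 CPM, against 1.05 to 1.13 CPM, with 33 of its 83 UMIs in 2 cells.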

How the results depend on the processing

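The numbers of cells limit most comparisons: 32 KO cells carry the annotation Microglia, and single cells hold much of Cxcl13. None of 10 genotype fold changes of Cxcl13 or Cxcr5 passed the threshold under any alternative run. Cxcl13 in cDC2 is not among these 10, and its alternatives are not summarised here. DESeq2 gave no adjusted p for either gene in mo-DCs or for Cxcr5 in cDC2. Same-numbered KO and WT mice had deviations in monocyte-derived cells that correlated at 0.13, 0.06 and -0.21. Differently numbered mice ranged from -0.35 to 0.26, so no pairing by number was seen, though so few values cannot exclude one. With the replicate block Cxcl13 in monocyte-derived cells was -1.94 (edgeR adjusted p = 0.690). Cxcr5 in B cells turned to 0.64 with it and the P5 share of Cxcl13-positive cells to -0.323 points. No WT mouse has the number of KO 4, so KO 4 does not inform fold changes fitted with this block. In B cells, where KO 1 was left out, WT 1 does not either. The blocked fits are thus close to leaving out these mice and are no separate check. The share value is also the lowest found on leaving out each mouse, given below. Leaving out each mouse gave log2 ranges of -1.07 to 0.84 (Cxcl13, T cells), -1.28 to 0.71 (Cxcr5, B cells), -1.05 to 1.84 (Cxcr5, T cells), -0.87 to 0.024 (Cxcr5, conventional dendritic cells), -2.27 to -0.15 (Cxcl13, monocyte-derived cells), -2.34 to -0.12 (Cxcl13, P5), -1.48 to -0.25 (Cxcl13, conventional dendritic cells), 1.50 to 3.26 (Cxcl13, mo-DCs), -1.07 to -0.14 (Cxcr5, cDC2) and -1.77 to -0.85 (Cxcr5, mo-DCs). In percentage points, shares ranged from -0.438 to 3.89 (Cxcr5, B cells), -0.643 to 0.145 (Cxcr5, Tfh), -5.57 to 0.0957 (Cxcr5, cDC2), -0.338 to 0.218 (Cxcl13, monocyte-derived cells) and -0.323 to 0.214 (Cxcl13, P5). Single reversals without 1 mouse were 0.029 (KO 2) and 0.059 (KO 3) for Cxcl13 in T cells and, for shares, -0.398 (Cxcr5 in B cells, KO 3) and -0.261 (Cxcl13 in P5, WT 1). Thinning to 3000 UMIs turned the B cell share to -11.3. List members called were 0, but 8 without the low-count filter (4 higher, 4 lower), 1 in DESeq2 and 0 to 1 without 1 mouse. Called genes higher and lower in Cxcl13-positive monocyte-derived cells (28 and 123) were 2 and 13 in DESeq2, 0 and 18 thinned, 0 and 0 without the replicate block, 10 and 22 in P5 alone and 5 and 51 with at least 2 UMIs (3 mice). Without 1 mouse they were 11 to 31 and 52 to 175. In cDC2, 3 and 20 genes were called without the filter, and 0 to 2 lower without 1 mouse. In B cells (60 and 197) they were 113 and 605 without the filter, 1 and 34 thinned, 0 and 0 without the block, and 2 to 137 and 50 to 331 without 1 mouse. Reversed single genes were, thinned, Ccnb2 (-6.89), P2ry12 (-1.08), Vill (-7.56), H2az2 (-0.53), Itm2b (-0.060), C1qc (-0.056) and, in B cells, Plac8 (-0.055), and in P5 alone Slpi (0.37). The cause was not tested. The Cxcl13 comparison in WT microglia and the Cxcr5 comparison in Tfh-annotated cells were not run for lack of positive cells.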
